A study of Homo sapiens with 8 samples.

Results

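The genes described here are the human semaphorins, plexins, neuropilins, ephrins and Eph receptors, families of cell surface and secreted proteins that guide migrating cells and axons. They were taken by symbol: every measured gene whose symbol starts with SEMA, PLXN, EPHA, EPHB, EFNA or EFNB followed by a digit or letter, plus NRP1 and NRP2. The rule gave 46 of the 15971 genes measured, 45 of them protein-coding and 1 an antisense RNA, EPHA5-AS1. Where several probes measured a gene, the brightest on average over the 8 arrays stands for it, so a value is the normalized intensity of 1 probe.

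All samples were MDA-MB-231, an established human breast cancer cell line of mesenchymal character, and RNA was taken 48 h after a transient transfection. Each title carries a treatment, a replicate number and a code number, followed by a plus mark in 3 of them. The treated group, 4 arrays, was given 75 nM of a miR-148b precursor, and the control group, 4 arrays, a negative control. In the control group the codes are 1, 2, 2 and 3 for replicates 1 to 4, with a plus mark at replicate 3. In the miR-148b group they are 1, 1, 2 and 3, with plus marks at replicates 2 and 3. The labels do not say what the code or the mark means. Replicates 1, 3 and 4 of the 2 groups thus match in code and mark, and replicate 2 does not. The labels call the arrays biological replicates without naming separate cultures, so the p-values measure the spread between these arrays.

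Semaphorins act mainly through plexins, whose cytoplasmic part acts on small GTPases and so on the cytoskeleton and on integrin adhesion. Most secreted class 3 semaphorins do not bind plexins alone and need a neuropilin, NRP1 or NRP2, as the binding part of the receptor; neuropilins also bind forms of vascular endothelial growth factor. Ephrins are membrane-bound ligands of the Eph receptor tyrosine kinases, and signals run both into the cell with the receptor and into the cell with the ephrin. In breast cancer cells these families are studied for their part in migration, invasion and contact with vessels. MicroRNAs pair with messages through their seed, bases 2 to 8 of the mature strand, and lower the level or translation of those messages.

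The treatment itself is a sequence, so the mature miR-148b strand is shown with the other members of its seed family, from RefSeq on build GRCh38.p14, 5′ to 3′ with the seed in capitals.
hsa-miR-148b-3p: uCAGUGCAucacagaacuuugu
hsa-miR-148a-3p: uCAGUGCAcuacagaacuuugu
hsa-miR-152-3p: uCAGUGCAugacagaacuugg
The miR-148b strand lies at chr12:54337278-54337299 (plus strand), miR-148a at chr7:25949922-25949943 (minus strand) and miR-152 at chr17:48037174-48037194 (minus strand). All 3 share the seed CAGUGCA, which pairs with UGCACUG in a message, and differ only outside it. Whether the messages of the guidance genes carry that match was not analysed here.

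The 8 arrays had median intensities from 370 to 404 and 1 shared highest value, 243058, and between 81 and 1038 empty cells. Of the 46 guidance genes, 40 had a value on every array; EFNA3, SEMA3E and SEMA3G had 7 values, SEMA5B and SEMA6D had 6 and EPHA8 had 5. Their probes were mostly dim, with 36 of 46 under the median gene level of 789, and the table carries no detection flag that would call a dim probe absent. Of the markers of the line, VIM (mean 137847) and CD44 (39860) were bright, while ZEB1 (146) and SPARC (173), also known from mesenchymal cells, were dim, as were CDH1 (67.7) and ESR1 (66.5) of epithelial and luminal cells and GATA3 (213). Of other cell types, PTPRC of leukocytes (12.2), CDH5 of endothelium (12.7) and ALB of liver (14.0) were near the lowest intensities and PECAM1 of endothelium was at 153.

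The comparison the study was made for asks which genes differ with miR-148b. Among the guidance genes the neuropilin NRP1 stood lowest against control by p-value. Its probe read 6299.95, 7312, 7637 and 7269 on control replicates 1 to 4, and 3966, 3524, 4776 and 5082 on miR-148b replicates 1 to 4. Every miR-148b array was below every control array, and the code 1 arrays were the low ones within each group. The control mean was 7129 ± 577 and the miR-148b mean 4337 ± 718 (SD, n = 4 each), 1.66-fold lower, a log2 difference of -0.73 (SE 0.17, 95% interval -1.11 to -0.35). In the limma test its p was 0.00203, the rank of 27 among all genes, and its adjusted p was 0.847, so the difference did not pass. The array material is RNA of whole cultures, where fewer cells with a message and less message per cell cannot be told apart.

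The 3 matched pairs, control against miR-148b within the same code and mark, gave NRP1 log2 differences of -0.67, -0.68 and -0.52 for replicates 1, 3 and 4. A fit blocked on the code gave a log2 difference of -0.65 (adjusted p = 0.292 in limma), and a fit with code 1 and the plus mark as terms gave -0.63 (adjusted p = 0.159). The size of the difference was close in these settings, and it passed in none of them.

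The other probes of NRP1 did not show the same separation. A probe of another transcript record, NM_001024629, read 2445, 5470, 4994 and 4319 in control and 2051, 1980, 5154 and 4531 with miR-148b. Here the 3 code 1 arrays were the low ones in both groups and the treatment groups overlapped, with a log2 difference of -0.40. The second probe of NM_003873, the record of the first probe, was at -0.22, and a dim probe of AF280547 at 0.09, both with overlap. When the probes of a gene were averaged on the log2 scale, NRP1 was at -0.31, less than its brightest probe shows by more than 1.5 times.

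**Figure D1:**
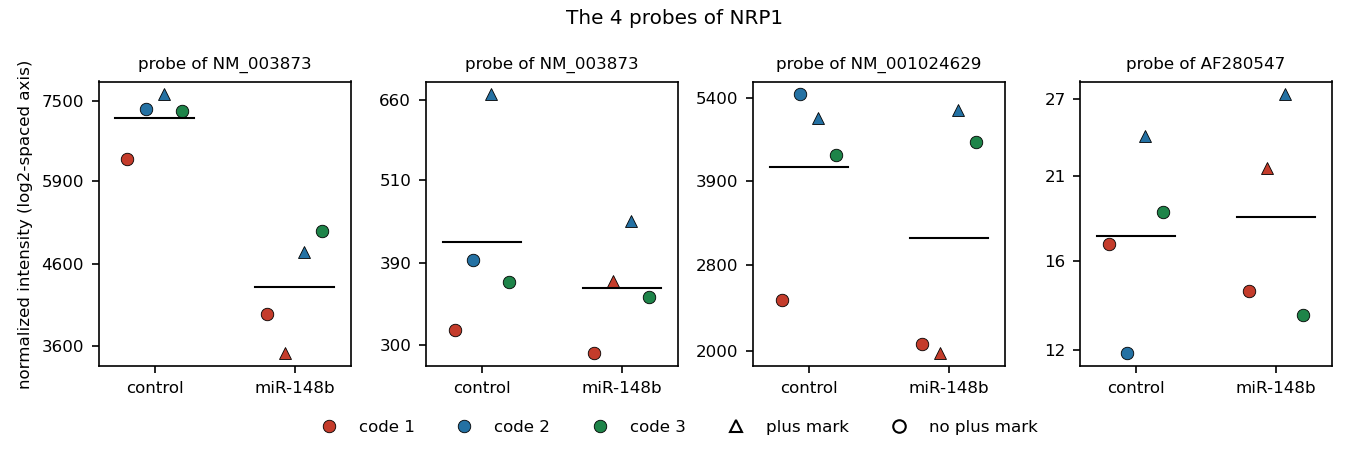
Normalized intensity of each of the 4 NRP1 probes on the 8 arrays (y axis, log2-spaced, a separate range per panel), by treatment (x axis), with code as colour, the plus mark as triangles and the geometric mean of each group as a line. In the first panel the miR-148b arrays, 3524 to 5082, lie below the control arrays, 6299.95 to 7637, while in the other panels the groups overlap.

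The second neuropilin, NRP2, read 283, 215, 299 and 221 in control and 363, 376, 254 and 257 with miR-148b. The 2 code 1 arrays with miR-148b were the highest, and the other miR-148b arrays lay within the control range. Its log2 difference was 0.29 (95% interval -0.18 to 0.75), and 0.12 with code 1 and the plus mark as terms.

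Of the plexins, which carry the semaphorin signal into the cell, all 3 B plexins were lower on average with miR-148b and 3 of the 4 A plexins were higher, none past the adjusted threshold. When the fit took in the code as a block, or code 1 and the plus mark as 2 terms, all 3 B plexins were again lower and 2 of the 4 A plexins higher. PLXNB3, a receptor of the membrane semaphorin SEMA5A, read 44.4, 59.6, 45.5 and 63.3 in control and 21.8, 27.6, 36.4 and 38.9 with miR-148b. The groups did not overlap, at very low intensities, and the log2 difference was -0.79 (SE 0.23, limma adjusted p = 0.847). PLXNB1, the receptor of SEMA4D, read 56.7, 64.3, 40.3 and 70.3 in control and 19.5, 40.8, 46.3 and 33.9 with miR-148b. Its groups overlapped at control replicate 3, which was the low control array, and the log2 difference was -0.76 (95% interval -1.45 to -0.07, adjusted p = 0.847). The matched pairs of PLXNB1 did not run one way, at -1.54, 0.20 and -1.05, and without miR-148b replicate 1 its difference was -0.50.

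PLXNA1, a signalling partner of neuropilins, was bright, with 44256, 35618, 32899 and 30294 in control and 52869, 54853, 42700 and 36998 with miR-148b. Each miR-148b array exceeded the control array of its number, and code 1 arrays were the high ones within each group. The log2 difference was 0.39 (95% interval -0.05 to 0.83), with 0.26, 0.38 and 0.29 in the 3 matched pairs and 0.26 with code 1 and the plus mark as terms. PLXNB2, at -0.23 (95% interval -0.80 to 0.34), and PLXND1, the receptor that SEMA3E binds without a neuropilin, at -0.13 (-0.44 to 0.17), did not differ beyond their spread.

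Among the 7 secreted class 3 semaphorins, 5 were higher and 2 lower on average with miR-148b, and 3 were higher and 4 lower with the code as a block and with the 2 terms alike. SEMA3B, a neuropilin ligand known as a candidate tumour suppressor, read 3900, 8506, 7372 and 7635 in control and 2536, 2392, 6162 and 5901 with miR-148b. The 3 code 1 arrays were the lowest of each group, so the treatment groups overlapped. Its log2 difference was -0.77 (95% interval -1.69 to 0.15), and -0.98 at its second probe. Blocked on the code the difference was -0.47, and without the code 1 arrays -0.38. SEMA3A, the founding class 3 ligand of NRP1, was at 0.36 (95% interval -1.17 to 1.90), an interval too wide to place it, and at -0.15 when blocked on the code. SEMA3G, with 7 values from 6.09 to 45.9, near the lowest intensities, turned from 0.27 to -0.85 with the 2 terms (unadjusted p = 0.0244 in limma, adjusted p = 0.272). It had no value on control replicate 3, the only control array with the plus mark. Its miR-148b arrays with the mark thus had no control with the mark beside them.

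Of the membrane-bound semaphorins, SEMA6A, a ligand of A plexins, had the largest difference of the whole family. It read 79.0, 26.0, 20.6 and 21.5 in control and 134, 105, 39.8 and 48.3 with miR-148b. Each miR-148b array was above the control array of its number, and the code 1 arrays were the high ones in both groups. The log2 difference was 1.22 (SE 0.54, 95% interval -0.02 to 2.47, limma adjusted p = 0.847), with 0.77, 0.95 and 1.17 in the matched pairs. With code 1 and the plus mark as terms it was 0.91 (SE 0.12, adjusted p = 0.159), and its other probe, also dim, was at 0.40. SEMA6D, a ligand of PLXNA1, had 6 values, of 38.6, 13.4 and 21.0 on control replicates 1, 2 and 4 and 39.5, 48.8 and 29.0 on miR-148b replicates 1, 2 and 4. Its log2 difference was 0.79 (95% interval -0.23 to 1.80) and 0.31 when blocked on the code. It moved with single arrays, to 0.43 without control replicate 2 and 1.19 without control replicate 1, and was at 0.48 with a pseudocount of 16.

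**Figure D2:**
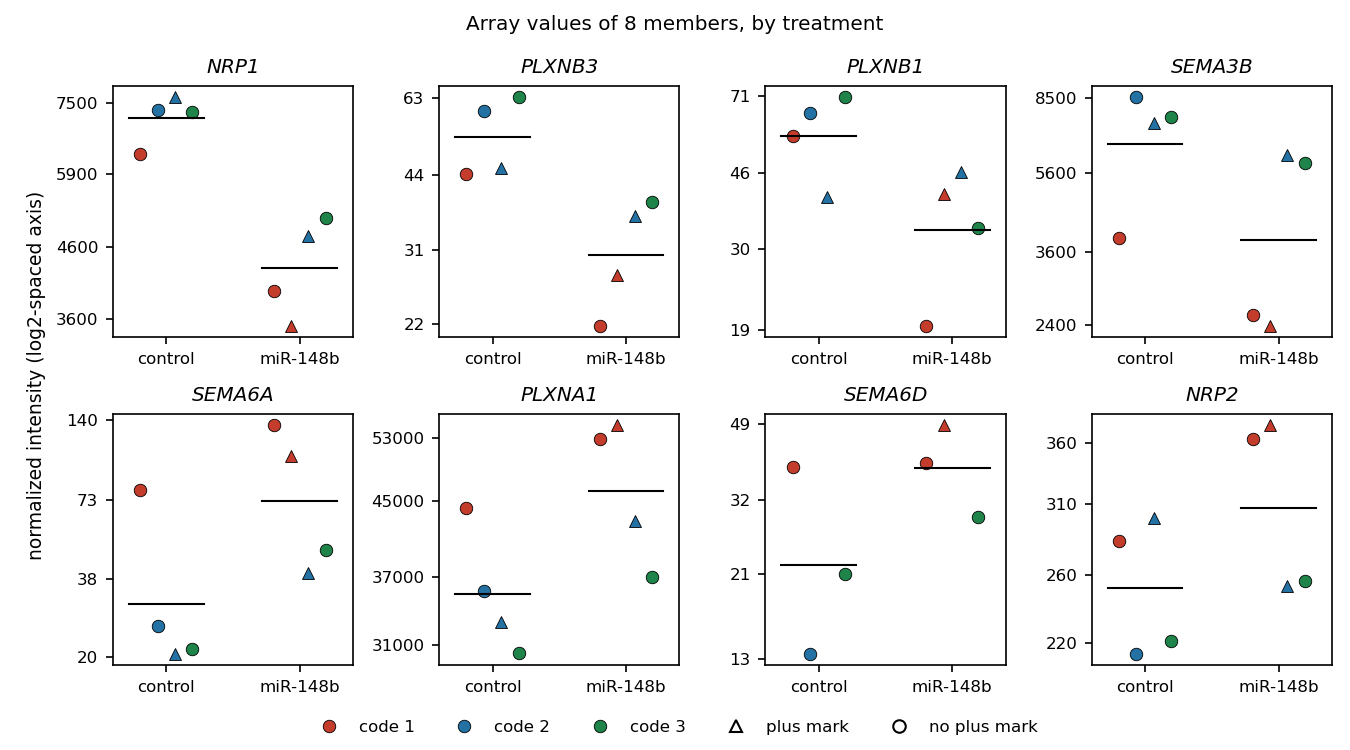
Normalized intensity of the 4 lower and 4 higher guidance genes with the smallest p-values (y axis, log2-spaced, a separate range per panel), by treatment (x axis), with code as colour, the plus mark as triangles and the geometric mean of each group as a line. NRP1 and PLXNB3 separate the 4 miR-148b from the 4 control arrays, and in SEMA3B and SEMA6A the code 1 arrays stand apart within both groups.

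In the ephrins and their receptors with all 8 values, the treatment groups overlapped. Of the 5 A ephrins, which are anchored by a lipid, 4 were lower and 1 higher (3 and 2 when blocked on the code), from -0.68 (EFNA3, 7 values near the lowest intensities) to 0.23 (EFNA5). The bright EFNA1, a ligand of EPHA2, had a control mean of 2337 ± 362 and a miR-148b mean of 2321 ± 147.8 (SD, n = 4 each), with a 95% interval of -0.35 to 0.35 on the log2 scale. The transmembrane B ephrins ran from -0.38 (EFNB3) to 0.37 (EFNB1). EPHA2, a receptor known to be abundant in basal-like breast cancer lines, read 2472 ± 923 and 2723 ± 983 (SD, n = 4 each), a difference of 0.14 (95% interval -0.74 to 1.02). EPHB3 was at -0.53 and EPHB4, the receptor of EFNB2, at 0.05, with overlap in both. EPHA4 was at -0.18 and EPHB6 at -0.32, but both were lower in all 3 matched pairs, EPHA4 at -0.84, -0.28 and -0.18 and EPHB6 at -0.41, -0.80 and -0.12. Blocked on the code, EPHA4 was at -0.62 (unadjusted p = 0.0253 in limma, adjusted p = 0.349) and EPHB6 at -0.66 (unadjusted p = 0.0332, adjusted p = 0.362). The antisense RNA EPHA5-AS1 was at 0.20 (95% interval -0.41 to 0.81).

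Over the whole family, 0 of 46 genes passed an adjusted p of 0.05 in limma, where 0% of all 15971 genes did, with a smallest adjusted p of 0.847. At an unadjusted p of 0.05, 3 of 46 passed (NRP1, PLXNB1 and PLXNB3, all lower), or 6.52%, beside 5.37% of all genes and 2.99% in the lower direction. In 2 of the 40 genes with all values, NRP1 and PLXNB3, the groups did not overlap, or 5% beside 4% of all genes; both lay below, as 2.41% of all genes did, and 0 above (1.59%). Blocked on the code, 7 passed the unadjusted level (13.2% of all genes): PLXNA1 and SEMA6A higher, and EPHA4, EPHB6, NRP1, PLXNB3 and SEMA3B lower. With both terms 7 passed (14.7%), with SEMA3G, lower at very low intensities, in place of EPHB6, and in both fits 0 passed after adjustment. The median log2 difference was 0.02 over the family, with 23 higher and 23 lower, and -0.03 over all genes. In the 3 matched pairs, 7 of 40 guidance genes were higher in every pair, 8 lower in every pair and 25 mixed; 38.1% of all genes ran one way. The family's shares are close to those of all genes.

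**Figure D3:**
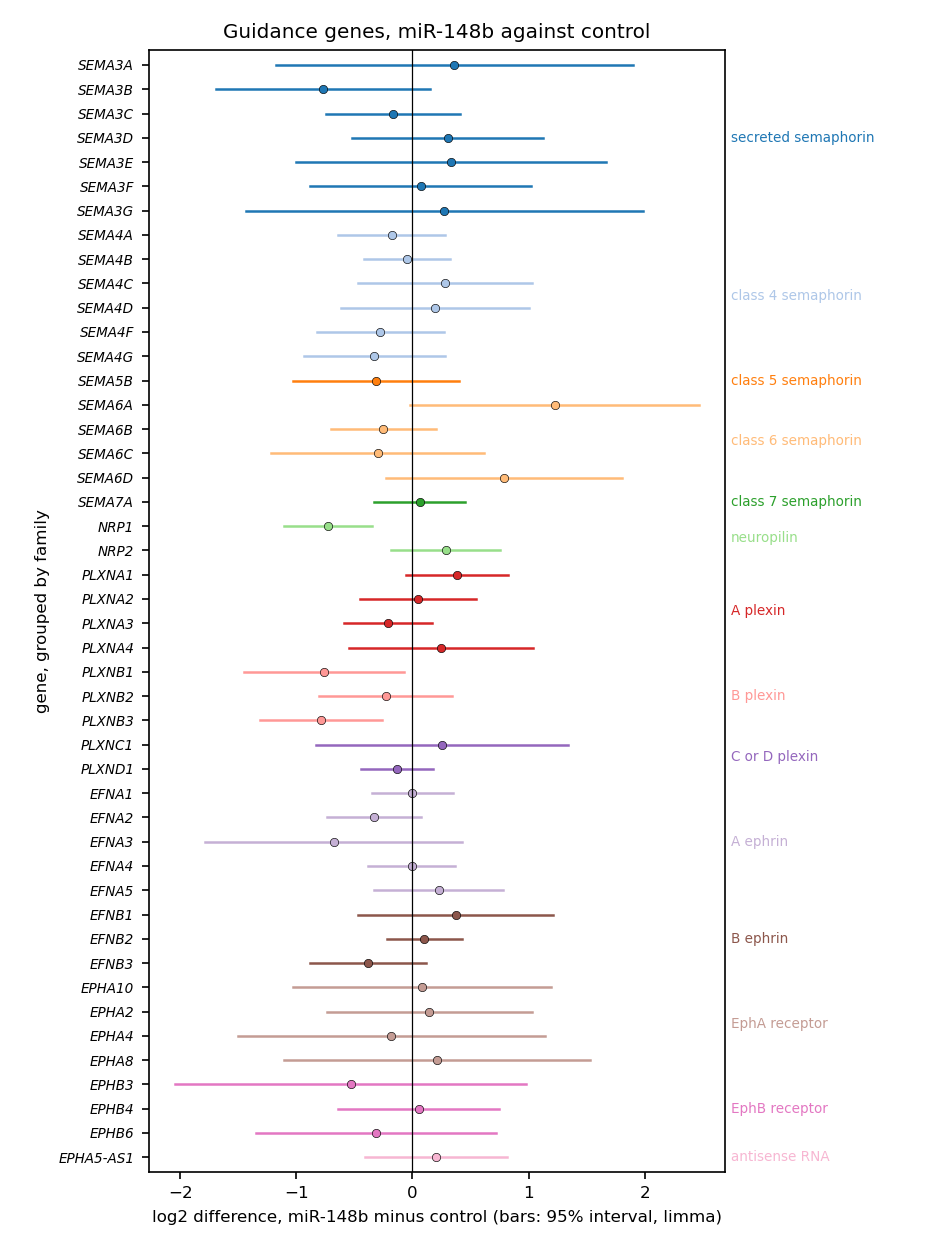
Log2 difference of miR-148b minus control (x axis) for the 46 guidance genes, grouped and coloured by family (y axis), as points with 95% intervals from limma. The intervals of NRP1, PLXNB1 and PLXNB3 lie below 0 before adjustment over all genes, and those of the other 43 genes span 0.

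Genes that work with these receptors, and those of the separate netrin and slit guidance systems, were counted as 4 lists. With miR-148b, 0 members of any list passed the adjusted threshold. Among ligands and receptors of the growth factors that share neuropilins, 2 were higher and 5 lower of 7, with the receptor KDR at 0.21 and the ligand VEGFB at -0.37. Of 22 co-receptors and effectors of semaphorins, 8 were higher and 14 lower, among them MICAL1, an actin-oxidising enzyme downstream of plexins, at -0.72 and the adhesion molecule NRCAM at 0.98. Of 21 effectors of ephrins and Eph receptors, 10 were higher and 11 lower, with the phosphatases PTPN11 at 0.46 and PTPN13 at 0.78. Of 21 genes of the netrin and slit guidance systems, 8 were higher and 13 lower, with the slit receptor ROBO2 at -1.18, very dim, and RGMB, a ligand of neogenin, at 0.58. The list medians were -0.11, -0.11, 0.00 and -0.08 in that order, beside -0.03 over all genes.

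The second comparison set the 3 code 1 arrays against the 5 arrays of codes 2 and 3, in 1 fit with terms for the plus mark and the treatment. Large differences lay here: the ligands SEMA3A and SEMA3E and the receptors EPHA4 and PLXNC1 were higher on code 1, and the receptor EPHB3 and the ligand SEMA3B lower. In all, 20 of 46 guidance genes (43.5%) passed an adjusted p of 0.05 in limma, where 36.1% of all genes did, 10 higher (17.2% of all genes) and 10 lower (18.9%). With median-centred arrays 18 passed, 11 of them higher, where 5602 of all 15964 genes passed, 2790 of them higher. The code separates the arrays of this series widely, and the family's share is near that of all genes. Of the 40 genes with all values, 14 had code 1 arrays that did not overlap the others (35%, beside 33.2% of all genes), 10 above (15.8%) and 4 below (17.4%).

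SEMA3A, which repels cells and axons through NRP1 and A plexins, read 1255, 762 and 1082 on the code 1 arrays (control replicate 1, then miR-148b replicates 1 and 2). On the other 5 arrays it read 251, 256, 261, 263 and 264. The code 1 arrays were far above the rest, in control and treated cells alike, and the others lay within a narrow band. The means were 1033 ± 250 (SD, n = 3) and 259 ± 5.61 (SD, n = 5), a log2 difference of 2.02 (SE 0.17, adjusted p = 3.02e-04), and the other SEMA3A probe gave 2.51. SEMA3E, the ligand of PLXND1, was dim and followed it, with 36.7, 39.1 and 53.4 on code 1 and 13.4 to 16.2 on the 4 other arrays with a value. Its log2 difference was 1.49 (SE 0.18, adjusted p = 0.00238), and 0.92 with a pseudocount of 16.

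SEMA3B ran the other way. It read 3900, 2536 and 2392 on the code 1 arrays and 5901, 6162, 7372, 7635 and 8506 on the others, without overlap. The log2 difference was -1.18 (SE 0.11, adjusted p = 4.30e-04), a 2.27-fold lower level, and -1.16 at its second probe. SEMA3C, which can signal through both neuropilins, also fell on code 1, by 0.41 on the log2 scale (adjusted p = 0.0494), with overlap of the arrays.

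Of the neuropilins, NRP2 rose by 0.43 (SE 0.13, adjusted p = 0.0395) and NRP1 was at -0.34 (SE 0.09, adjusted p = 0.0337), both with overlap of the arrays. All 4 NRP2 probes were higher on code 1, at 0.43, 1.07, 0.86 and 0.65, while those of NRP1 were at -0.34, -0.31, -1.15 and 0.02. These 2 calls were close to the threshold: NRP2 lost it without any 1 of 7 arrays (only leaving out control replicate 3 kept it), and NRP1 without control replicates 1 or 4 or miR-148b replicates 2, 3 or 4. Both lost it with no other terms (adjusted p = 0.0684 for NRP2 and 0.179 for NRP1) and without the plus arrays (0.0676 and 0.173), and NRP1 with median-centred arrays (0.0641). Among the plexins, PLXNA1 rose by 0.45 (adjusted p = 0.0156; its second, dim probe was at 0.0040), PLXNC1 rose and PLXNB3 fell by 0.51 (adjusted p = 0.0472). PLXNC1, the receptor of SEMA7A, was dim, with 47.0, 35.1 and 61.6 on code 1 and 14.4, 18.8, 19.9, 21.0 and 23.9 on the others. Its arrays did not overlap, and the log2 difference was 1.30 (SE 0.25, adjusted p = 0.00815), against 0.73 with the mean of its probes. Without control replicate 1 the PLXNC1 call was lost, at 1.32.

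Of the membrane-bound semaphorins, SEMA6A read 79.0, 134 and 105 on the code 1 arrays and 20.6, 21.5, 26.0, 39.8 and 48.3 on the others. The code 1 arrays lay above all others, with a log2 difference of 1.55 (SE 0.12, adjusted p = 2.22e-04), while its other probe was at 0.16. SEMA4C, a ligand of PLXNB2, was bright, at 27197 ± 624 (SD, n = 3) on code 1 and 14389 ± 1607 (SD, n = 5) on the others, a log2 difference of 0.94 (adjusted p = 0.00102). SEMA4D, the ligand of PLXNB1, fell by 0.74 (adjusted p = 0.00192), SEMA4F by 0.58 (0.00276), SEMA4G by 0.65 (0.0198) and SEMA6C by 0.74 (0.0085). In SEMA4F and SEMA4G the code 1 arrays lay below all others, and in SEMA4D and SEMA6C they overlapped them. The second probe of SEMA4D was at -1.91. So 3 of the 6 class 4 semaphorins fell and 1 rose.

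Among the Eph receptors, EPHA4, which binds ephrins of both classes, read 942, 526 and 420 on the code 1 arrays and 158, 191, 202, 228 and 284 on the others. The arrays did not overlap, the log2 difference was 1.61 (SE 0.15, adjusted p = 4.29e-04), and both other EPHA4 probes gave 1.55 and 1.54. EPHB3, a receptor of B ephrins, read 101, 79.0 and 96.8 on the code 1 arrays and 311, 345, 353, 393 and 428 on the others. Here the code 1 arrays were the low ones, 3.94-fold, a log2 difference of -1.98 (SE 0.16, adjusted p = 2.68e-04). EPHA8 had 5 values, 10.5 and 15.5 on code 1 and 22.7, 27.1 and 30.0 on others, a log2 difference of -1.11 (adjusted p = 0.00798) at very low intensities, and without control replicate 1 it lost the call. With a pseudocount of 16 it was at -0.59. EPHB6, a receptor without kinase activity, rose by 0.92 (adjusted p = 0.00874). Of the ephrins only EFNB1 passed, at 2025 ± 90.8 (SD, n = 3) and 994 ± 176 (SD, n = 5), a log2 difference of 1.05 (adjusted p = 0.00114), and EPHA2 was at 0.13 (adjusted p = 0.846).

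**Figure D4:**
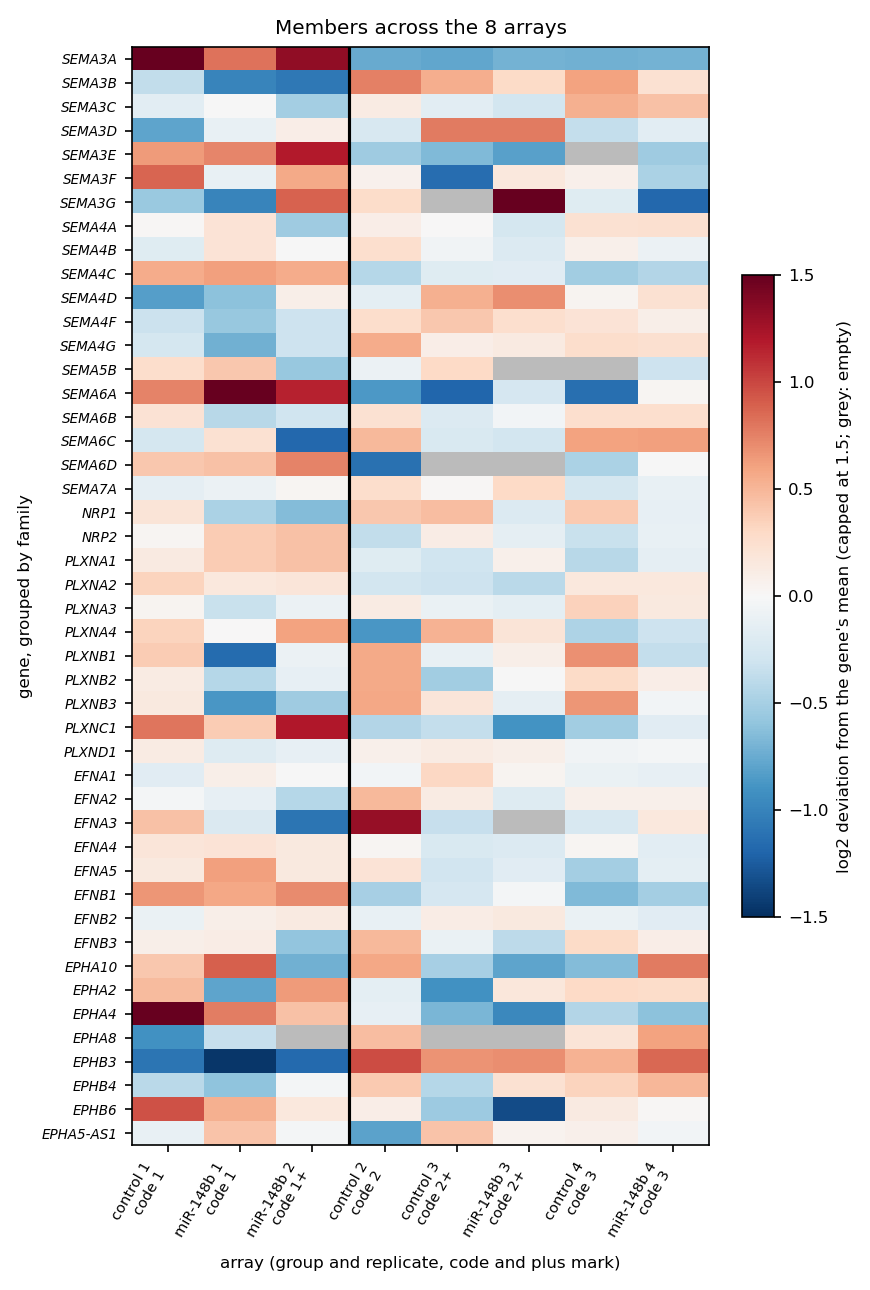
Log2 deviation of each guidance gene (rows, by family) from its own mean on each of the 8 arrays (columns, code 1 left of the black line, then codes 2 and 3), red above and blue below, capped at 1.5, with empty cells in grey. SEMA3A, SEMA3E, SEMA6A and EPHA4 are red on the 3 code 1 arrays and EPHB3 and SEMA3B blue, in control and miR-148b arrays alike.

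Of the 20 genes called on code 1, 11 kept the call when any 1 of the 8 arrays was left out: EFNB1, EPHA4, EPHB6, SEMA3A, SEMA3E, SEMA4C and SEMA6A, all higher, and EPHB3, SEMA3B, SEMA4D and SEMA4F, all lower. Without control replicate 1, the only code 1 array without miR-148b, 11 guidance genes passed, where 3358 of all 15896 genes did. Differences between arrays of the same treatment and mark ran one way in 30 of the 41 genes with all 3 of them, 15 higher and 15 lower, beside 67.3% of all genes. An interaction of treatment and code 1 was fitted too, with log2 estimates among the guidance genes from -1.02 (EPHA2) to 0.59 (SEMA4B). It rests on the 1 control array of code 1, so it cannot decide whether the effect of miR-148b depends on the code.

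Genes of the same lists past the adjusted threshold on code 1 were counted as well. Of all genes 36.1% passed there, 17.2% higher and 18.9% lower. VEGFA, VEGFB and PGF, ligands that neuropilins or their co-receptors bind, fell by 0.96, 0.97 and 0.89, and the other 4 of that list of 7 did not pass. Of 22 co-receptors and effectors of semaphorins 5 rose and 5 fell. DPYSL3, of the collapsin response mediator family, was at 2.02, NRCAM at 1.14 and DPYSL2 at 0.87. The kinase FES, very dim at a mean of 15.9, was at -1.20. Of 21 Eph and ephrin effectors 5 rose and 2 fell. The scaffold GRIP1 was at 2.43 but very dim, with a mean of 8.78 on the other codes. The exchange factor KALRN was at 2.19, PTPN13 at 1.66 and the adaptor NCK2 at -1.23. Of 21 netrin and slit genes 6 rose and 5 fell, with the slit receptor ROBO1 at 3.60, NTN4 at 2.90, the netrin receptor NEO1 at 2.52 and NTNG2 at -2.13. Markers moved with the code too. Of the 4 mesenchymal markers VIM was at 0.46, CD44 at -1.25 and SPARC at -2.13, and of the 3 epithelial and luminal ones GATA3 was at -1.40, all past the adjusted threshold. Of the 4 markers of other cell types PECAM1 rose by 1.53, and the intensities of these 4 summed to 290 to 301 on the code 1 arrays and 104 to 138 on the others, with PTPRC, CDH5 and ALB near the lowest intensities throughout and none at 0. The part of these differences in those of the guidance genes was not tested.

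Promoter sequence was set beside the code 1 differences. RefSeq windows of 300 bases around the start (build GRCh38.p14) were matched for 39 of the 45 protein-coding genes, not for NRP1, SEMA3A, SEMA6A, SEMA6B, EFNB3 and EPHA10. The dinucleotide CG, which reads the same on both strands, was counted; 95.8% of all 27305 such windows hold it at least once, and so do all 39 of these. The median count was 23 in the guidance genes and 24 in the 12599 windows of measured genes. It was 15 in the 8 genes higher on code 1, 17 in the 9 lower and 28 in the 22 that passed neither way, where all measured genes had 25, 26 and 24. TATAAA on either strand was found in 1 of the 39 windows, that of EFNB2, or 2.56%, beside 7.58% of the windows of measured genes. The windows of EPHA4 and EPHB3, the receptors with the largest rise and fall, are shown with each CG in capitals.
EPHA4: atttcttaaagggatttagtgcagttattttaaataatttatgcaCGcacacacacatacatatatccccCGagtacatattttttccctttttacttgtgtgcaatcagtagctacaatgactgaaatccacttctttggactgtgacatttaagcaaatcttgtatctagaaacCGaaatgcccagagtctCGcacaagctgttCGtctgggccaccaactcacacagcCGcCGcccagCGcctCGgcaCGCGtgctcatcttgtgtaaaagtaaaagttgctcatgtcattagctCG
EPHB3: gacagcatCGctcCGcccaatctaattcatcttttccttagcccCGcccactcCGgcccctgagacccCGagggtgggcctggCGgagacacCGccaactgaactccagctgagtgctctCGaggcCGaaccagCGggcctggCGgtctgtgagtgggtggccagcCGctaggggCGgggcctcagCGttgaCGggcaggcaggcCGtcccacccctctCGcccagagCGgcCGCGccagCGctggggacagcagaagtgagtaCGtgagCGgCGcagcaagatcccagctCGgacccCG
The EPHA4 window, at chr2:221574153-221574452 (minus strand), holds 12 CG and is 43% G or C, and that of EPHB3, at chr3:184561535-184561834 (plus strand), holds 26 and is 69%. The counts describe the letters only.

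The third comparison set the 3 arrays with the plus mark against the 5 without it, from the same fit. Here 7 of 45 guidance genes (15.6%) passed an adjusted p of 0.05 in limma, where 13.6% of all genes did. SEMA3D, SEMA3G and SEMA4D were higher (5.87% of all genes were) and EFNB3, EPHB6, SEMA3C and SEMA6C lower (7.68%). None of the 7 kept the call when each array was left out in turn, and without miR-148b replicate 3 or replicate 4 the count was 0. It was 1 without miR-148b replicate 2, 2 without control replicate 3 and 4 without control replicate 1, 2 or 4. The count over all genes, 2151, changed with these arrays too. It was 577 and 109 without miR-148b replicates 3 and 4, and 679 without miR-148b replicate 2. Without control replicates 1, 2, 3 and 4 it was 1399, 1330, 697 and 918, and without miR-148b replicate 1 it was 3697.

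The secreted semaphorins went both ways. SEMA3D read 630, 392 and 631 on the plus arrays (control replicate 3, then miR-148b replicates 2 and 3) and 211, 287, 309, 327 and 339 on the others. The arrays did not overlap, and the log2 difference was 0.80 (SE 0.18, adjusted p = 0.0359), while its 2 dim probes were at -0.09 and 0.21 and the mean of its probes at 0.18. SEMA3G, an NRP2 ligand, had 7 values near the lowest intensities. They were 25.3 and 45.9 on the plus arrays of miR-148b replicates 2 and 3, and 6.09, 6.93, 9.33, 12.1 and 16.6 on the others. Control replicate 3, the only control array with the mark, was empty, so the difference was not measured in control cells. Its log2 difference of 2.39 (SE 0.30, adjusted p = 0.0127) became 1.17 with a pseudocount of 16. SEMA3C read 686, 540 and 635 on the plus arrays and 687, 766, 837, 1041 and 1109 on the others. The plus arrays were the lowest 3, by a narrow gap, and it fell by 0.55 (adjusted p = 0.0423).

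SEMA4D read 216, 158 and 241 on the plus arrays and 84.3, 96.9, 134, 153 and 175 on the others. The arrays overlapped, as the plus array of code 1, at 158, lay below miR-148b replicate 4, at 175. Its log2 difference was 0.59 (SE 0.10, adjusted p = 0.0175), against -0.21 at its second probe and 0.19 with the mean of both. SEMA6C read 90.8, 47.0 and 87.8 on the plus arrays and 88.5, 125, 149, 161 and 163 on the others, a log2 difference of -0.98 (adjusted p = 0.0131). Of the ephrin system, EFNB3 read 394, 280 and 321 on the plus arrays and 447, 450, 453, 515 and 587 on the others, below all of them. It was at -0.53 (adjusted p = 0.0297), and at -0.30 with the mean of its probes. EPHB6 read 53.8, 87.7 and 31.0 on the plus arrays and 79.7, 84.3, 86.4, 114 and 152 on the others, a log2 difference of -0.77 (adjusted p = 0.0405) with overlap.

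Of the other guidance genes, NRP1 was at -0.06 (95% interval -0.29 to 0.16) and NRP2 at 0.21 (-0.09 to 0.52) with the plus mark. Without control replicate 3 NRP2 was at 0.016. The other probes of NRP1 were at 0.54 (second probe of NM_003873), 0.03 (NM_001024629) and 0.73 (the dim probe of AF280547). In 5 of 40 genes the plus arrays did not overlap the rest (12.5%, beside 16.1% of all genes), EFNB2 and SEMA3D above (7.49%) and EFNB3, SEMA3C and SEMA4A below (8.63%). Partner genes past the adjusted threshold with the plus mark were counted as well, where 13.6% of all genes passed, 5.87% higher and 7.68% lower. In the growth factor list of 7, 1 rose and 1 fell. VEGFD, dim at a mean of 24.1, rose by 0.96 and FLT4 fell by 0.76. Among 22 co-receptors and effectors of semaphorins 1 rose, NRCAM by 0.81, and 2 fell, CRMP1 by 1.09 and MICAL1 by 0.60. Among 21 Eph and ephrin effectors 0 rose and 3 fell, the exchange factors ITSN1, TIAM1 and ITSN2, by 1.31, 1.14 and 1.04. Among 21 netrin and slit genes 0 rose and 1 fell, SLIT3 by 0.98.

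**Figure D5:**
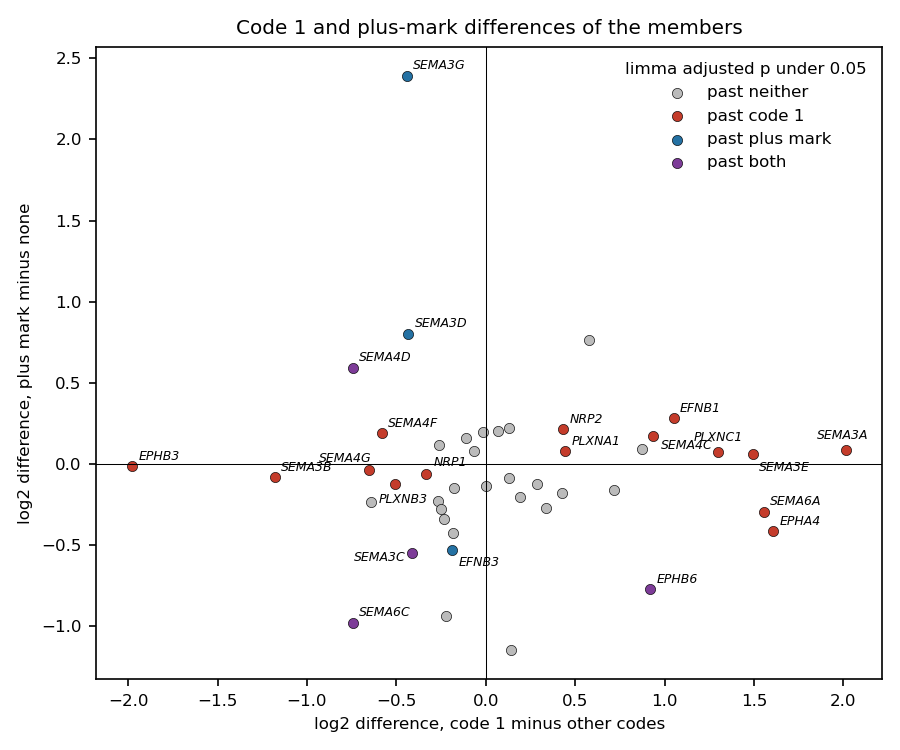
Log2 difference of code 1 minus the other codes (x axis) against that of the plus mark minus none (y axis) for 45 guidance genes, coloured by which adjusted threshold of limma they pass. Both differences come from 1 fit on the same 8 arrays. The points spread from -1.98 to 2.02 along the code axis. SEMA3G, without a plus value in control, stands at 2.39 along the other, and EPHA8, without any plus value, is not drawn.

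Different probes of a gene did not always give the same sign. More than 1 probe was present for 22 of the 46 genes, and the 29 other probes differed in sign from the one used in 8 cases for miR-148b, 2 for code 1 and 15 for the plus mark.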

How the data were processed

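Total RNA of 8 samples was labelled with Cy3 and hybridised to 1-colour Agilent whole human genome arrays, and, per the labels, the scans were quantified in Agilent Feature Extraction (version 10.5.1.1). The authors deposited 1 table of normalized intensity values on a linear scale, 33446 probes by 8 arrays, all columns used (0 left out). How they were normalized, background-corrected or filtered is not given in the sources used here, and the arrays share their highest value. A normalization between arrays would hide a shift of all genes, which was not tested. Precision is set by the number of arrays.

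Log2 was taken with a pseudocount of 0, and empty cells stayed empty. Gene names came from the platform's annotation in GEO, brought up to date with RefSeq (GRCh38.p14): 24790 probes had 1 gene, 27 several and 8629 none. Fits used limma 3.58.1 (lmFit and eBayes, two-sided) in R 4.3.3 over all genes, with Benjamini-Hochberg adjustment and a threshold of 0.05. They were also run on simulated arrays with known changes and independent noise, for genes with all values, and the outcome is not reported here. Figures were drawn with matplotlib 3.10.9. Alternatives were a pseudocount of 16, median-centred arrays, the mean of a gene's probes, leaving out the dimmest 50% of probes, each array, the code 1 or the plus arrays, and other blocks and terms. Values in every array are given for NRP1 and NRP2 and, per comparison, for up to 8 genes past the threshold with the largest differences, or else the 4 higher and 4 lower with the smallest p. Of a list, up to 4 genes past the threshold are named, or else the 2 with the smallest p. The members and lists were chosen with earlier results of these data known. Matched-array differences were added after seeing the data.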

Additional observations from a re-analysis of the deposited data

Results flagged for a closer look

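Sets of 4 arrays were examined for each guidance gene with all values, per treatment group. In 6 of the 80 sets 1 array stood apart from the other 3 by Dixon's ratio, where chance gives about 1 in 20 sets. The ratio sets the gap to the nearest array against the range of the 4 on the log2 scale. A small difference can thus be flagged where the other 3 lie close together. Control replicate 1, of code 1, was the high array in 3 of them. SEMA3A read 1255 there against 251 to 261 on the other controls, SEMA6A 79.0 against 20.6 to 26.0, and PLXNC1 47.0 against 18.8 to 21.0. Control replicate 3, of code 2 with the plus mark, was high for EFNB2, at 4869.72 against 4189.5 to 4204.07, and low for SEMA6B, at 308 against 412 to 422. On miR-148b replicate 3, also of code 2 with the plus mark, PLXNA2 was low, at 342 against 504 to 514.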

How the results depend on the processing

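With miR-148b, 0 guidance genes passed in limma under every alternative run, the replicate block (0) included. The replicate numbers do not pair all arrays: over 30582 probes, same-numbered arrays correlated, after subtracting each group's mean, at 0.61, 0.59 and 0.66 for replicates 1, 3 and 4 and at -0.50 for replicate 2, so the block is given only here. All 139 miR-148b values of NRP1, NRP2, PLXNA1, PLXNB1, PLXNB3, SEMA3B, SEMA6A and SEMA6D kept their sign and side of the threshold. For code 1 the count of 20 ran from 11 to 22 when 1 array was left out, and that of all genes from 3358 to 6064. Both were lowest without control replicate 1. Without the dimmest 50% of probes 8 of the 18 tested passed, where 4450 of 9787 genes did. Of 133 named values 114 kept their call and 19 lost it with the same sign. For the plus mark the count of 7 ran from 0 to 7 when 1 array was left out, and that of all genes from 109 to 3697. The guidance gene count was 4 without control replicates 1, 2 or 4, and 2 without control replicate 3. It was 1 without miR-148b replicate 2 and 0 without miR-148b replicates 3 or 4. Without the dimmest 50% of probes 3 of 18 passed, where 1811 of 9788 genes did. With the mean of a gene's probes 4 passed, where 1913 of 15881 genes did. The guidance gene count was 0 with no other terms and 3 without the code 1 arrays. Of 121 named plus values 69 kept their sign and side of the threshold, 50 lost the call and 2 turned sign, both of NRP1. The 69 include values of NRP1 and NRP2, which had no call to keep, so all 50 lost calls are of the 7 called genes. NRP1 turned from -0.06 to 0.31 with the mean of its probes and to 0.0039 without miR-148b replicate 2. The latter was the highest of a range from -0.13 (without control replicate 3) when 1 array was left out. With median-centred arrays, 458 of 1837 genes called on the plus mark were higher, against 932 of 2151. Where no reason is built into the setting, the cause was not tested.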
